A study of Canis lupus familiaris with 29 samples.

Results

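The genes described here make sterols and fatty acids or control that synthesis. They are 31 named genes, chosen by name from textbook pathways with earlier results of these data known. They hold 18 of the sterol arm, 8 of the fatty acid arm, and 5 regulators and carriers. Each was matched to the row of the same gene name among 24223 dog genes, and 29 of the 31 names had a row. HMGCS1 and EBP had none and were not analysed here. FADS1, a fatty acid desaturase, was listed at 0 to 0.109 FPKM (a level of fragments scaled to transcript length and library size). It did not pass the expression filter of 1 FPKM in at least 2 libraries, so 28 of the 29 were tested among 11774 genes: all 16 sterol genes with a row, 7 of the fatty acid arm and 5 regulators.

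Cells make cholesterol from acetyl-CoA through mevalonate, squalene and lanosterol, and make fatty acids from the same acetyl-CoA through malonyl-CoA. Both arms answer to the SREBP transcription factors, encoded by SREBF1 and SREBF2, which wait in the endoplasmic reticulum membrane with their escort SCAP. When sterols are scarce, SCAP carries them to the Golgi, where they are cut and released to the nucleus, and INSIG1 holds the complex back when sterols are plentiful. SREBF2 is known mainly for the sterol genes and SREBF1 mainly for the fatty acid genes, and INSIG1 is itself a target of both. Polarised kidney epithelia such as these use both products to build apical and basolateral membranes.

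The cells were MDCKII, an established dog kidney epithelial line that forms cysts in a gel and flat polarised sheets on a porous support. All 29 RNA libraries came from this line, in 13 groups. DENND5A-KD cells, in which the DENN-domain gene DENND5A was knocked down, were sampled at day 0 and at days 4 and 7 on transwell inserts (2D), with 2 libraries each. AVL9-KD cells, with the related gene AVL9 knocked down, were sampled at day 0 and at 2D day 4, with 2 libraries each. Wild-type (WT) cells were sampled at day 0, before seeding (4 libraries), in matrigel (3D) at 24 h and days 3, 5 and 8 (2 each) and day 14 (1), and in 2D at days 4 and 11 (3 each). DENND5A-KD libraries are numbered 1 and 2, and AVL9-KD libraries 1 and 4. Each number is called a line here, since it is not given in the labels whether it is a clone, a hairpin or a guide, and a control line treated in the same way was not analysed here. Nor do the labels say if replicates came from separate cultures, and the p-values cover only how these libraries varied, which may be technical.

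Total FPKM ran between 276017 and 441332 per library and 10163 to 10903 genes reached 1 FPKM. Read counts were not used, so absolute depth is unknown. Relative to WT day 0 replicate 2 it ran between 0.470 and 1.57. The WT libraries that stood apart from the rest, 5 in number, were day 0 replicate 1, 3D day 3 replicate 1, 3D day 8 replicate 1, 3D day 14 and 2D day 4 replicate 1. In these 5, TIMM13 was listed at 0, against 30.9 to 397 FPKM in the other 24, and relative depth was 0.470 to 0.716, against 0.828 to 1.10 in the other WT libraries and 0.652 to 1.57 in all 24 others, where AVL9-KD 2D day 4 line 4 was the lowest. The epithelial markers CDH1 (60.2 to 332 FPKM) and EPCAM (225 to 378 FPKM) and the kidney factor PAX8 (19.5 to 72.1 FPKM) were present in every library, as was PAX2 (8.92 to 27.0 FPKM). The kidney cadherin CDH16 ran between 0.0345 and 68.6 FPKM, and KRT8 and KRT18 had no row under these names. Markers of fibroblasts and endothelium stayed at or below 0.177 FPKM, the leukocyte genes CD3E and PTPRC at or below 0.0193 FPKM and CD68 at or below 0.672 FPKM. Of the fat cell markers, ADIPOQ and PLIN1 stayed at or below 0.303 FPKM and CIDEC reached 3.05 FPKM. In such bulk libraries, fewer cells of a type and less RNA per cell cannot be told apart.

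Levels across all 13 groups differed most for FADS2, the delta-6 desaturase, whose highest group mean was 8.94 times its lowest. The ratio was 6.67 for IDI1, 5.69 for ACLY, 5.66 for FASN, 4.87 for INSIG1 and 4.60 for LSS. It was smallest for SCAP (1.69) and SREBF2 (1.92). Of the 28 genes, 12 had their lowest group mean at WT 3D day 8, 5 in the single day 14 library and 3 at WT 3D day 5. The highest mean was at 3D 24 h for 9 genes and in AVL9-KD day 0 cells for 8. Such counts were not made over all genes. The median log2 difference of all genes tested from WT day 0 was -0.13 at WT 3D day 8 and 0.11 in AVL9-KD day 0 cells.

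**Figure D1:**
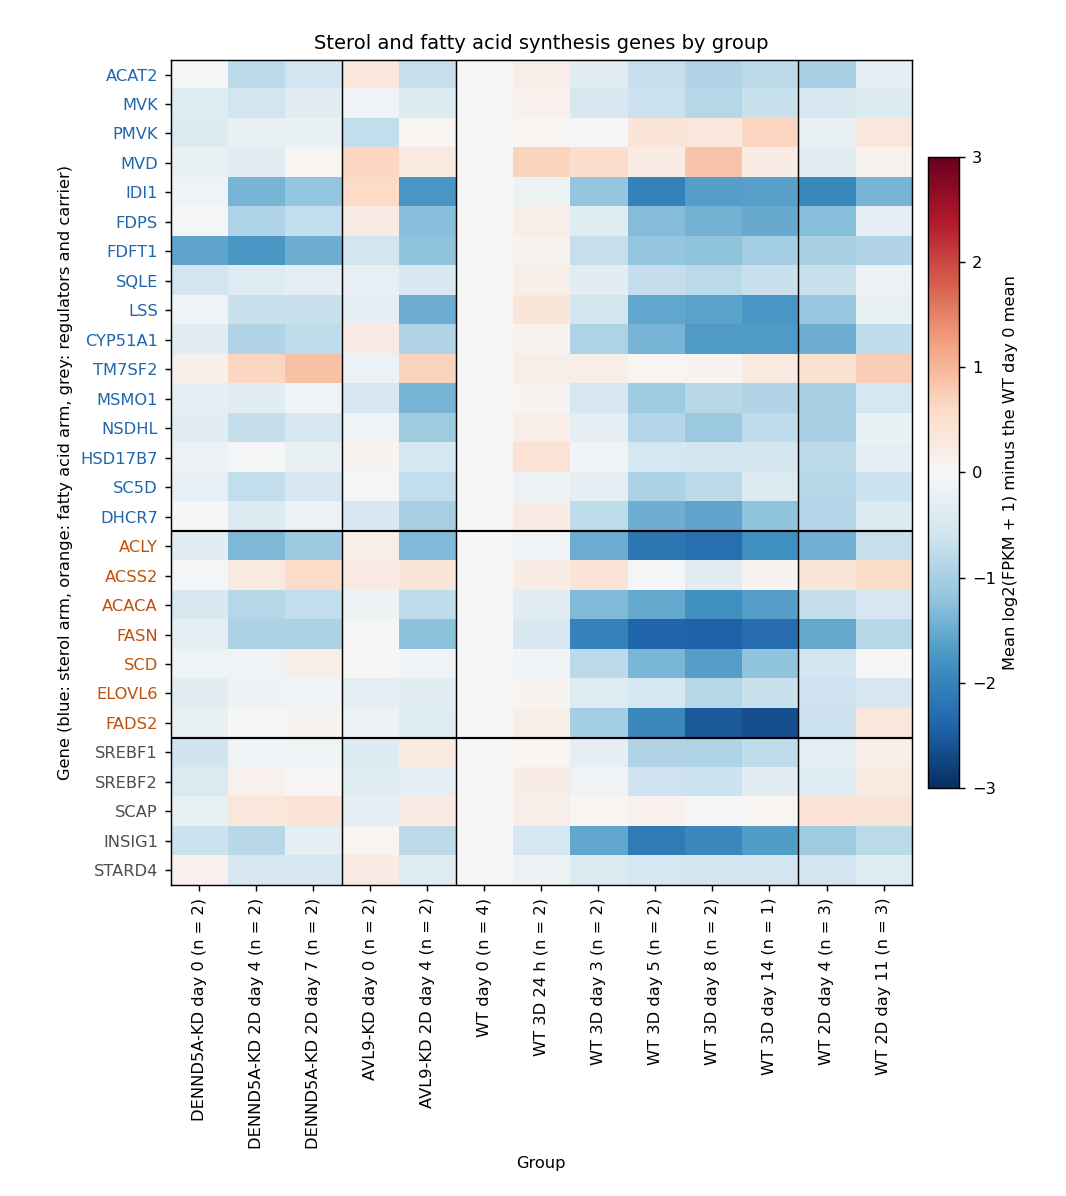
Heat map of 28 genes (rows, by arm) in 13 groups (columns, with n libraries each). Colour gives the group mean of log2(FPKM + 1) minus the WT day 0 mean, from blue (lower) to red (higher). FADS2, FASN and ACLY are darkest blue at WT 3D days 8 and 14, and FASN, ACLY and INSIG1 at day 5, while TM7SF2, SCAP and ACSS2 are pale red in the 2D groups.

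In the WT 3D course the synthesis genes were near their day 0 levels at 24 h, were lower in part at day 3, and were lower nearly throughout at days 5 and 8. Differences are given on the log2(FPKM + 1) scale, which understates the change of low genes, with standard errors and 2-sided p-values from limma adjusted over all 11774 genes, called at an adjusted p under 0.05. At 24 h, limma called none of the 28 in comparison with day 0, where 1.19% of all genes were called. Of the 28, 5 had an unadjusted p under 0.05. Counts at an unadjusted p under 0.05, and counts of signs, were not made over all genes here or below. Nor was overlap of libraries counted over all genes, and with 2 libraries a side a lack of overlap adds little to a call. The nearest to a call was HSD17B7 (0.42 ± 0.15, limma adjusted p = 0.188). All comparisons with WT day 0 in this text share the same 4 day 0 libraries.

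At day 3, 12 of the 28 genes fell and 1 rose, against 23.1% of all genes lower and 28% higher. The fatty acid arm held 6 of these falls among 7 genes and the sterol arm 4 among 16. Their median differences were -1.01 and -0.36, beside 0.05 for all genes tested. Without the 5 libraries that stand apart, 7 of the 28 were called at day 3 in place of 13, and FADS2, SCD and STARD4 were among those lost.

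At day 5, 23 of the 28 fell and none rose (31.2% of all genes lower, 26.4% higher), with 13 of 16 in the sterol arm, 6 of 7 in the fatty acid arm and 4 of 5 regulators and carriers. At day 8, 24 fell and 1 rose (38% lower, 24.7% higher), with 13 of 16, 7 of 7 and 4 of 5. The median difference at day 8 was -0.89 in the sterol arm and -1.85 in the fatty acid arm, beside -0.13 for all genes, a shift that became 0.02 under median-ratio scaling.

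Acetyl-CoA carboxylase (ACACA) and fatty acid synthase (FASN) build the fatty acid chain. FASN had 137, 88.3, 101 and 84.1 FPKM in the 4 day 0 libraries and 74.2 and 68.8 FPKM at 24 h. It had 22.2 and 25.4 FPKM at day 3, then 16.5 and 20.4 at day 5, 21.2 and 15.2 at day 8 and 19.9 at day 14. All 7 libraries from day 3 on lay under every earlier one. The difference was -2.04 ± 0.18 at day 3 (limma adjusted p = 6.76e-08), -2.39 ± 0.18 at day 5 (4.68e-09) and -2.42 ± 0.18 at day 8 (1.85e-09).

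ACACA had 49.7, 42.4, 40.2 and 39.0 FPKM at day 0 and 34.9 and 32.7 FPKM at 24 h. The day 3 libraries had 16.1 and 16.6 FPKM, those of day 5 14.0 and 14.2, those of day 8 13.1 and 9.40, and the day 14 library 12.8. There was no overlap with day 0 at any of these times, and the difference was -1.33 ± 0.14 at day 3 (limma adjusted p = 3.33e-07) and -1.85 ± 0.14 at day 8 (1.49e-09).

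ATP citrate lyase (ACLY) makes the acetyl-CoA that both arms use. It had 215, 120.0, 144 and 118 FPKM at day 0 and 132 and 144 at 24 h. Levels were 52.8 and 49.8 FPKM at day 3, then 31.1 and 32.1 at day 5, 32.0 and 27.4 at day 8 and 39.5 at day 14. All 7 libraries from day 3 on lay far under every earlier one. ACLY differed by -1.48 ± 0.23 at day 3 (limma adjusted p = 2.87e-05) and by -2.25 ± 0.23 at day 8 (7.74e-08).

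ACSS2, which makes acetyl-CoA from acetate, was the exception of this arm. It had 5.83, 5.19, 4.04 and 4.74 FPKM at day 0, then 6.76 and 6.72 at day 3, 4.72 and 4.58 at day 5, with 3.98 and 3.34 at day 8 and 5.27 at day 14. Day 3 lay above every day 0 library and day 8 below every one, with differences of 0.39 ± 0.14 (limma adjusted p = 0.0254) and -0.35 ± 0.14 (0.0369). The day 3 call was lost without day 0 replicate 3 or either day 3 library, and the day 8 call without day 0 replicate 1 or 2 or day 8 replicate 2 and under median-ratio scaling.

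The desaturases and the elongase act on the finished chain. FADS2 had 58.9, 46.0, 49.0 and 49.1 FPKM at day 0 and 59.99 and 54.1 at 24 h. It had 24.9 and 24.3 FPKM at day 3, then 12.7 and 12.2 at day 5, 8.27 and 7.85 at day 8 and 7.32 at day 14. Each later time lay below each earlier one from day 3 on, and no library of these times reached the day 0 range. The difference from day 0 was -1.01 ± 0.29 at day 3 (limma adjusted p = 0.00626), -1.94 ± 0.29 at day 5 (1.09e-05) and -2.51 ± 0.29 at day 8 (3.33e-07). FADS1 and FADS2 are paralogs, and reads the 2 share could be assigned to either, so these levels are uncertain to that extent.

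Stearoyl-CoA desaturase (SCD), which makes oleate, had 238, 164, 172 and 153 FPKM at day 0, then 107 and 102 at day 3, 66.1 and 71.8 at day 5, 62.7 and 49.995 at day 8 and 76.4 at day 14. No library from day 3 on reached the day 0 range, and the difference at day 8 was -1.66 ± 0.22 (limma adjusted p = 1.95e-06). ELOVL6, the elongase of palmitate, ranged between 20.7 and 48.6 FPKM over all 29 libraries and fell at days 3, 5 and 8, with -0.86 at day 8 (SE 0.13, limma adjusted p = 1.5e-05). Its day 3 call was lost without day 0 replicate 1 or either day 3 library.

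**Figure D2:**
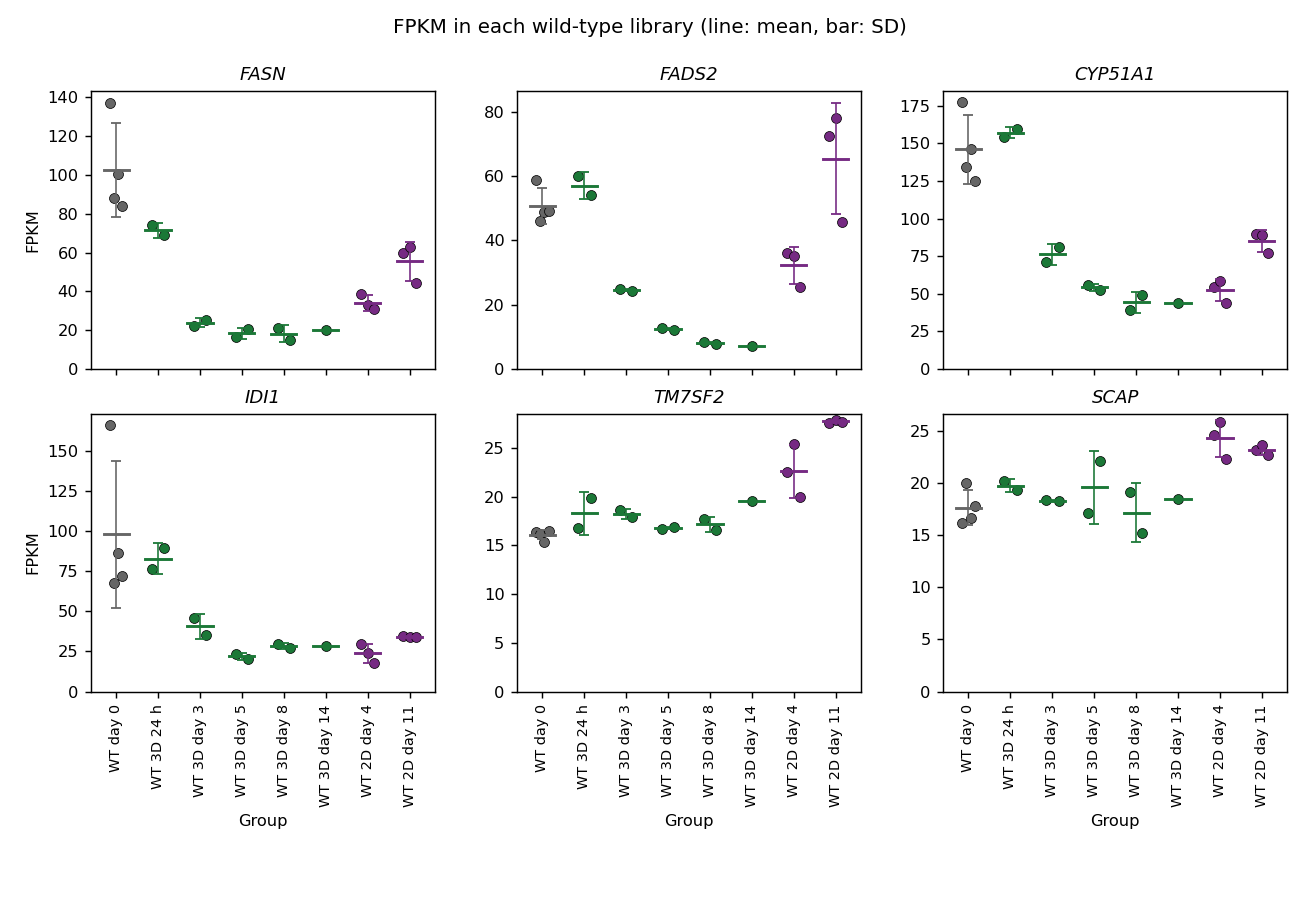
FPKM (vertical axis) of FASN, FADS2, CYP51A1, IDI1, TM7SF2 and SCAP in each WT library by group, with the mean as a line and the SD as a bar where n is 2 or more. FASN, FADS2, CYP51A1 and IDI1 are lower from 3D day 3 on, and FADS2 is back at 45.8 to 78.2 FPKM at 2D day 11, while TM7SF2 and SCAP are highest in 2D.

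In the sterol arm the mevalonate steps come first. IDI1, the isomerase of isopentenyl diphosphate, had 166, 67.7, 86.1 and 71.8 FPKM at day 0. It had 46.1 and 35.1 FPKM at day 3, then 23.3 and 20.4 at day 5, 29.7 and 26.9 at day 8 and 28.6 at day 14. Day 0 replicate 1 was far above the other day 0 libraries, yet none from day 3 on reached even the lowest of them. IDI1 differed by -1.16 ± 0.28 at day 3 (limma adjusted p = 0.00197), -2.02 ± 0.28 at day 5 (5.89e-06) and -1.66 ± 0.28 at day 8 (4.25e-05).

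FDPS, which makes farnesyl diphosphate, had 174, 89.9, 109.7 and 93.0 FPKM at day 0, then 84.8 and 89.8 at day 3, 51.8 and 38.7 at day 5, 41.0 and 41.2 at day 8 and 39.1 at day 14. Day 3 lay just under the lowest day 0 library and was not called. At day 8 the difference was -1.43 ± 0.28 (limma adjusted p = 0.000185).

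ACAT2, the thiolase that joins the first acetyl-CoA units, had 120.0, 78.0, 91.4 and 78.0 FPKM at day 0, then 72.9 and 68.6 at day 3, 63.4 and 48.6 at day 5, 46.8 and 48.5 at day 8 and 51.6 at day 14. No library from day 3 on reached the day 0 range, and the difference at day 8 was -0.91 ± 0.20 (limma adjusted p = 0.000447). Mevalonate kinase (MVK) ranged from 6.18 to 17.3 FPKM over all libraries and fell at days 3, 5 and 8, with -0.86 at day 8 (SE 0.15, limma adjusted p = 6.38e-05). Its day 3 call was lost without either day 3 library.

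The enzymes between mevalonate and IDI1 did not all move with it. MVD, the mevalonate diphosphate decarboxylase, had 49.0, 20.4, 25.2 and 23.7 FPKM at day 0, then 49.5 and 32.9 at day 3, 28.8 and 36.9 at day 5, 52.2 and 50.8 at day 8 and 32.5 at day 14. Both day 8 libraries lay above all 4 of day 0, though day 0 replicate 1 came close to them, and MVD rose by 0.86 ± 0.30 (limma adjusted p = 0.0155). That call was lost without either day 8 library. PMVK, the phosphomevalonate kinase, had 4.29, 4.88, 3.41 and 4.37 FPKM at day 0, then 3.15 and 5.64 at day 3, 5.74 and 5.92 at day 5, 4.42 and 7.07 at day 8 and 7.15 at day 14, and was called at none of the 3D times.

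Squalene is made by FDFT1, oxidised by SQLE and closed into lanosterol by LSS. LSS had 52.1, 36.0, 43.2 and 37.7 FPKM at day 0 and 52.8 and 55.7 at 24 h, then 27.5 and 29.3 at day 3. It had 13.1 and 14.0 FPKM at day 5, then 14.0 and 12.1 at day 8 and 11.8 at day 14. The 5 libraries from day 5 on lay close together and far under day 0, with differences of -1.56 ± 0.25 at day 5 (limma adjusted p = 2.7e-05) and -1.61 ± 0.25 at day 8 (1.43e-05).

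FDFT1 had 51.3, 26.4, 34.9 and 26.4 FPKM at day 0, then 21.2 and 19.5 at day 3, 15.1 and 13.9 at day 5, 15.7 and 12.5 at day 8 and 16.1 at day 14. No later library reached the day 0 range, and the difference at day 8 was -1.20 ± 0.38 (limma adjusted p = 0.00887). This call was lost without day 8 replicate 2 or the 5 libraries that stand apart, and the day 5 call without either day 5 library. SQLE, at 97.1 to 226 FPKM over all libraries, fell at days 5 and 8, with differences of -0.71 and -0.80 (SE 0.17 each, limma adjusted p = 0.00174 and 0.000483).

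Of the steps after lanosterol, CYP51A1, the lanosterol demethylase, had 178, 134, 146 and 125 FPKM at day 0 and 154 and 159.6 at 24 h. It had 71.2 and 81.2 FPKM at day 3, then 55.7 and 52.7 at day 5, 39.4 and 49.1 at day 8 and 43.6 at day 14. The difference was -0.92 ± 0.18 at day 3 (limma adjusted p = 0.000358) and -1.40 ± 0.18 at day 5 (2.62e-06), and no library from day 3 on reached the day 0 range.

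DHCR7, the last reductase on the way to cholesterol, had 39.5, 28.9, 32.96 and 30.9 FPKM at day 0, then 19.3 and 18.3 at day 3, 10.2 and 12.6 at day 5, 11.8 and 9.05 at day 8 and 13.6 at day 14. It differed by -0.77 ± 0.22 at day 3 (limma adjusted p = 0.00686), a call lost without day 3 replicate 2, and by -1.57 ± 0.22 at day 8 (4.53e-06). NSDHL, a decarboxylating sterol dehydrogenase, had 27.3, 18.6, 20.1 and 21.3 FPKM at day 0, then 18.4 and 17.3 at day 3, 13.3 and 9.61 at day 5, 9.66 and 9.33 at day 8 and 12.3 at day 14. Each 3D library from day 3 on lay under day 0, and day 8 differed by -1.11 ± 0.21 (limma adjusted p = 0.000156).

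MSMO1, the C4 methyl oxidase, had 39.5, 27.0, 30.4 and 23.7 FPKM at day 0, then 21.9 and 19.4 at day 3, 16.7 and 10.9 at day 5, 15.4 and 17.3 at day 8 and 15.4 at day 14. All these 3D libraries lay under day 0, with differences at days 5 and 8 of -1.08 ± 0.26 (limma adjusted p = 0.00128) and -0.82 ± 0.26 (0.0087), and the day 8 call was lost without day 8 replicate 1 and under quantile normalization. SC5D, a sterol desaturase at 28.8 to 81.0 FPKM over all libraries, and HSD17B7, a sterol ketoreductase at 9.37 to 26.3 FPKM, fell at days 5 and 8. The day 8 differences were -0.82 ± 0.18 (limma adjusted p = 0.000523) and -0.56 ± 0.15 (0.00265). The calls of HSD17B7 at both times were lost under quantile normalization.

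TM7SF2, a sterol C14 reductase, lay slightly above its day 0 level through the gel course. Day 0 had 16.4, 16.2, 15.4 and 16.5 FPKM and 24 h 16.7 and 19.8. Day 3 had 18.6 and 17.9 FPKM, day 5 16.7 and 16.8, day 8 17.7 and 16.6 and day 14 19.6. Each 3D library lay above every day 0 one, some narrowly, and TM7SF2 was called at none of the 3D times.

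The steps between neighbouring 3D times were not alike. Between 24 h and day 3, 13 of the 28 genes fell and none rose (17.8% of all genes lower, 16.7% higher). They were 6 of 16 sterol genes, 6 of 7 fatty acid genes and INSIG1. The median difference was -0.55 in the sterol arm and -1.01 in the fatty acid arm, beside -0.001 for all genes. FASN led with -1.55 ± 0.21 (limma adjusted p = 3.58e-05), and of the sterol genes CYP51A1, DHCR7, LSS and IDI1 had differences of -0.91 to -1.04. The 13 calls became 6 without 24 h replicate 2, and at most 8 without any other of the 4 libraries. At day 5 against day 3, limma called none, with 0.391% of all genes called. Of the 28, 15 had an unadjusted p under 0.05 and 26 were below 0, beside a median of -0.10 over all genes. LSS was nearest to a call (-1.02 ± 0.29, limma adjusted p = 0.104). At day 8 against day 5, limma called none and none had an unadjusted p under 0.05, with 0.034% of all genes called.

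On inserts, WT cells at day 4 had most of both arms below day 0, and by day 11 fewer genes were called. At 2D day 4, 22 of the 28 fell and 3 rose (29.6% of all genes lower, 30.3% higher). The falls were 13 of 16 sterol genes, 6 of 7 fatty acid genes and 3 of 5 regulators and carriers, and the rises were TM7SF2, ACSS2 and SCAP. Here the sterol arm had the lower median difference, -0.92, beside -0.65 in the fatty acid arm and 0.00 for all genes. At 2D day 11, 12 fell and 3 rose (23.7% lower, 32.2% higher), with medians of -0.29 and -0.49 beside 0.06 for all genes.

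In the sterol arm, IDI1 had 29.3, 23.9 and 18.1 FPKM at 2D day 4 and 34.5, 33.9 and 33.8 at day 11. Both times lay under every day 0 library, with differences of -1.93 ± 0.25 (limma adjusted p = 1.64e-06) and -1.40 ± 0.25 (9.16e-05). CYP51A1 had 54.3, 58.3 and 44.1 FPKM at day 4 and 89.9, 88.9 and 77.0 at day 11. It was lower than day 0 at both times, with differences of -1.46 ± 0.16 (limma adjusted p = 2.15e-07) and -0.76 ± 0.16 (0.000518), and the 2 insert times did not overlap.

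ACAT2 had 52.8, 50.5 and 35.0 FPKM at 2D day 4, below every day 0 library, and fell by 0.98 (SE 0.17, limma adjusted p = 6.16e-05). It had 78.7, 86.8 and 58.3 FPKM at day 11, where it was not called against day 0. FDPS had 55.2, 50.04 and 34.5 FPKM at day 4, with a fall of 1.28 (SE 0.25, limma adjusted p = 0.000165), and 109, 111 and 63.8 at day 11, which overlapped day 0 and was not called.

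LSS had 22.7, 19.7 and 13.7 FPKM at day 4, all under day 0 (-1.15 ± 0.22, limma adjusted p = 0.000154), and 38.7, 40.5 and 28.6 at day 11, with 2 of 3 libraries inside the day 0 range. NSDHL had 12.3, 11.3 and 8.32 FPKM at day 4 (-0.97 ± 0.19, limma adjusted p = 0.000169) and 20.9, 22.6 and 13.6 at day 11, again with 2 of 3 inside the day 0 range. DHCR7 had 23.0, 17.4 and 13.005 FPKM at day 4, below day 0 (-0.88 ± 0.20, limma adjusted p = 0.000648), and 26.04, 26.4 and 21.7 at day 11, where it was not called.

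FDFT1 and MSMO1 stayed lower. FDFT1 had 21.7, 16.2 and 13.1 FPKM at day 4 and 15.1, 15.5 and 22.6 at day 11, all under day 0, with differences of -0.97 ± 0.33 (limma adjusted p = 0.0161) and -0.90 ± 0.33 (0.0254). Both calls were lost without day 0 replicate 1, the day 4 call also without day 4 replicate 3 and the day 11 call also without day 11 replicate 1 or 2. MSMO1 had 18.9, 16.5 and 9.58 FPKM at day 4 (-0.99 ± 0.23, limma adjusted p = 0.000807) and 20.3, 20.6 and 19.4 at day 11 (-0.54 ± 0.23, 0.0492), and the day 11 call was lost under 11 of 15 alternatives, without day 0 replicate 1, 2 or 3 among them.

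TM7SF2 went the other way. It had 22.5, 25.4 and 20.0 FPKM at 2D day 4 and 27.6, 27.9 and 27.7 at day 11, all above every day 0 library, and rose by 0.46 ± 0.12 (limma adjusted p = 0.00195) and 0.75 ± 0.12 (1.96e-05). MVD, with 34.2, 20.4 and 15.7 FPKM at day 4 and 31.5, 33.3 and 25.8 at day 11, and PMVK, with 2.23, 4.83 and 3.67 and then 5.77, 5.59 and 5.34 FPKM, were called at neither time. Of the genes given by range, MVK, SQLE, HSD17B7 and SC5D fell at day 4 (-0.49 to -0.85), and MVK and SC5D also at day 11 (-0.41 and -0.64). The day 11 call of MVK was lost without day 0 replicate 1.

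In the fatty acid arm, FASN had 38.7, 33.1 and 30.8 FPKM at 2D day 4 and 59.6, 62.9 and 44.1 at day 11. The times did not overlap with each other or with day 0, and the differences from day 0 were -1.54 ± 0.16 (limma adjusted p = 9.76e-08) and -0.86 ± 0.16 (0.000133). ACLY had 64.9, 57.5 and 40.1 FPKM at day 4 (-1.43 ± 0.20, limma adjusted p = 4.72e-06) and 97.1, 102 and 73.1 at day 11 (-0.69 ± 0.20, 0.00703), the second of these lost without day 11 replicate 3. ACACA had 28.8, 25.0 and 22.7 FPKM at day 4 and 30.2, 32.4 and 27.0 at day 11, all under day 0 (-0.72 ± 0.12, limma adjusted p = 3.1e-05, and -0.50 ± 0.12, 0.00138).

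SCD had 132, 129 and 102 FPKM at 2D day 4, under day 0, and 206, 209.8 and 133 at day 11, with 2 libraries inside the day 0 range. FADS2 had 36.1, 35.2 and 25.6 FPKM at day 4, under day 0, and 72.4, 78.2 and 45.8 at day 11, with 2 libraries above all of day 0. Their day 4 falls were small (-0.57 ± 0.19, limma adjusted p = 0.0155, and -0.65 ± 0.25, 0.0332), and both were lost without day 0 replicate 1 or day 4 replicate 3 and under quantile normalization. ACSS2 had 7.12, 7.26 and 5.40 FPKM at day 4 and 7.71, 7.46 and 7.62 at day 11. At day 11 it lay above every day 0 library and rose by 0.54 ± 0.12 (limma adjusted p = 0.000949). At day 4 it overlapped day 0 (0.35 ± 0.12, 0.0183), and that call was lost without day 0 replicate 3 or day 4 replicate 1 or 2. ELOVL6 differed by -0.62 at day 4 and -0.49 at day 11 (SE 0.12 each, limma adjusted p = 0.000136 and 0.00159).

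At 2D day 11 against day 4, 27 of the 28 differences were above 0, beside a median of 0.06 over all genes. Of the 28, 4 were called, all higher, against 1.9% of all genes higher and 0.178% lower. An unadjusted p under 0.05 was found for 16. The 4 were LSS (0.92 ± 0.24, limma adjusted p = 0.0471), CYP51A1 (0.70 ± 0.17, 0.04), FASN (0.67 ± 0.17, 0.0457) and HSD17B7 (0.54 ± 0.14, 0.0483). The count was 0 without day 4 replicate 3 or day 11 replicate 1 or 2, 2 without day 4 replicate 2 and 11 without day 11 replicate 3.

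The 3D libraries of days 3, 5 and 8 and the 2D libraries of days 4 and 11 are 6 each and are not matched in day. Set against each other, they differed in the fatty acid arm, where 6 of 7 genes were lower in 3D, and in 4 of 5 regulators and carriers, all lower in 3D. In the sterol arm 3 of 16 were lower and 1 higher in 3D. Of all genes, 34.8% were lower and 22.1% higher in 3D. The median differences were -0.96 in the fatty acid arm, -0.40 in the regulators and carriers and -0.12 in the sterol arm, beside -0.08 for all genes. The fatty acid count was 6 of 7 also under quantile normalization, median-ratio scaling, a term for the 5 libraries that stand apart, and without those 5, with medians of -0.90, -0.85, -0.998 and -0.98.

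FADS2 had 7.85, 12.4 and 24.9 FPKM as lowest, median and highest value in 3D, and 25.6, 41.0 and 78.2 FPKM in 2D. The 2 sets did not overlap, and the difference was -1.66 ± 0.19 (limma adjusted p = 6.85e-07). For FASN these values were 15.2, 20.8 and 25.4 FPKM in 3D and 30.8, 41.4 and 62.9 FPKM in 2D, also with no overlap (-1.09 ± 0.12, 4.46e-07 by limma).

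ACACA had 9.40, 14.1 and 16.6 FPKM in 3D and 22.7, 27.9 and 32.4 FPKM in 2D, with no overlap (-0.96 ± 0.09, limma adjusted p = 6.24e-08). SCD had 49.995, 69.0 and 107 FPKM in 3D and 102, 133 and 209.8 FPKM in 2D, where the highest 3D library passed the lowest 2D one (-0.98 ± 0.15, 1.26e-05). ACLY (-0.91 ± 0.15, limma adjusted p = 4.98e-05) and ACSS2 (-0.45 ± 0.09, 0.000359) were lower in 3D with some overlap, and ELOVL6, with medians of 26.3 FPKM in 3D and 27.1 in 2D, was not called.

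Among the sterol genes, TM7SF2 had 16.6, 17.3 and 18.6 FPKM in 3D and 20.0, 26.5 and 27.9 FPKM in 2D. It was the only one whose sets did not overlap (-0.50 ± 0.09, limma adjusted p = 7.57e-05). DHCR7 had 9.05, 12.2 and 19.3 FPKM in 3D and 13.005, 22.3 and 26.4 FPKM in 2D (-0.63 ± 0.15, 0.00127). LSS was lower in 3D (-0.55 ± 0.17, limma adjusted p = 0.00847), a call lost without the 5 libraries that stand apart (0.0519), and MVD was higher, with medians of 43.2 FPKM in 3D and 28.7 FPKM in 2D (0.64 ± 0.20, 0.00938). The other 12 were not called, IDI1 among them, with medians of 28.3 FPKM in 3D and 31.6 FPKM in 2D.

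**Figure D3:**
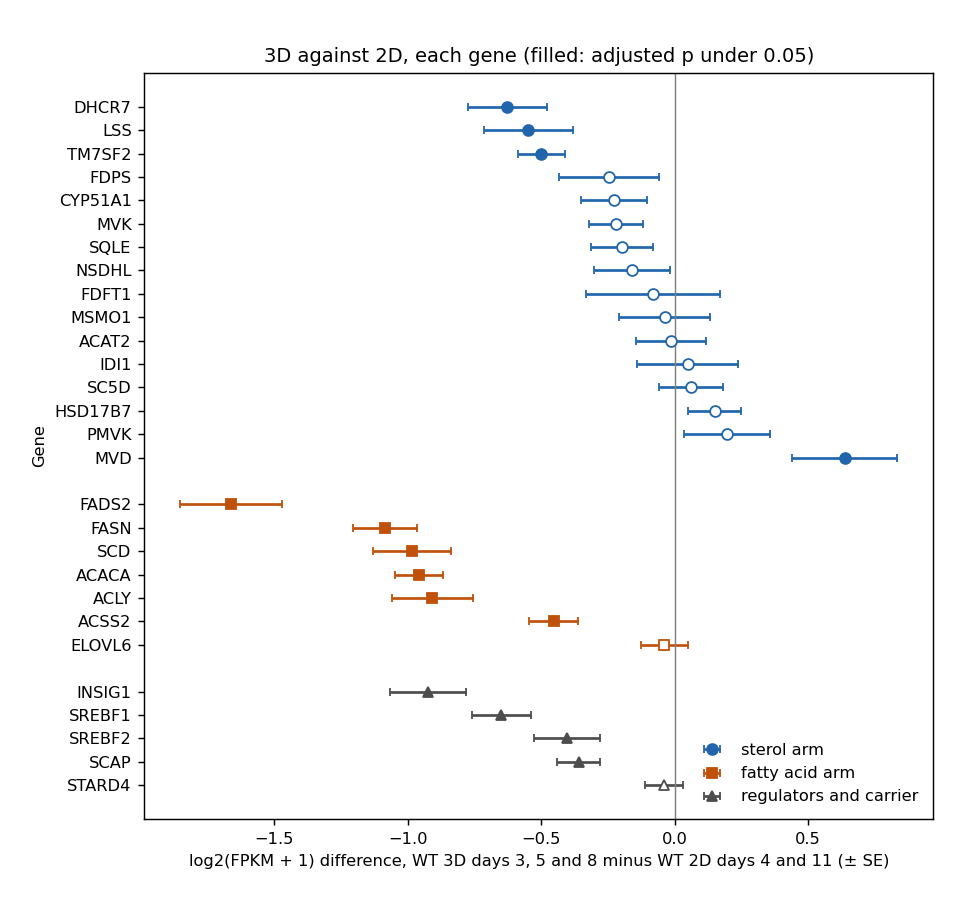
Difference in log2(FPKM + 1) of each gene between WT 3D (days 3, 5 and 8, 6 libraries) and WT 2D (days 4 and 11, 6 libraries), with bars of 1 SE; filled symbols passed limma's adjusted p under 0.05. FADS2 lies farthest to the left at -1.66, 6 of 7 fatty acid genes are filled on the left, and most sterol genes are open near 0.

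Taken per library, as the mean over the genes of an arm of log2(FPKM + 1) minus the WT day 0 mean, the distance between the 2 arms varied with the group. At day 0 the fatty acid mean minus the sterol mean was -0.04, 0.07, -0.03 and 0.01. It was -0.23 and -0.27 at 3D 24 h, -0.61 and -0.54 at day 3, -0.63 and -0.51 at day 5, -0.71 and -0.97 at day 8 and -0.69 at day 14. In 2D it was 0.09, 0.04 and 0.18 at day 4 and 0.13, 0.16 and -0.01 at day 11. The difference was below 0 in every 3D library. The day 0 libraries themselves ran from -0.18 to 0.39 in the sterol mean and from -0.154 to 0.34 in the fatty acid mean, replicate 1 highest. At 24 h the sterol means, 0.15 and 0.20, and the fatty acid means, -0.08 and -0.07, lay inside these ranges. From 3D day 3 on both means lay below them. In WT 2D the difference was above 0 in all libraries but day 11 replicate 3. Within the 5 libraries that stand apart the values were -0.04 at day 0, -0.61, -0.71 and -0.69 at 3D days 3, 8 and 14 and 0.09 at 2D day 4. These are descriptions of arms chosen by name with earlier results of these data known, and the arm means were not tested.

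The sterol mean alone was -0.34 and -0.41 at 3D day 3, -0.81 and -0.90 at 3D day 5, -0.87 and -0.85 at 3D day 8 and -0.65, -0.74 and -1.14 at 2D day 4, so 3D days 5 and 8 lay inside the range of 2D day 4. The fatty acid mean was -0.95 and -0.95 at 3D day 3, -1.44 and -1.41 at 3D day 5, -1.58 and -1.82 at 3D day 8 and -0.56, -0.71 and -0.96 at 2D day 4. Here 3D day 3 lay inside the range of 2D day 4, and 3D days 5 and 8 below it. The proliferation marker MKI67 had 29.6 to 37.0 FPKM at day 0, then 25.6 and 28.5 at 24 h, 13.9 and 12.3 at 3D day 3, 7.98 and 6.57 at day 5, 5.76 and 3.16 at day 8 and 4.02 at day 14. In 2D it had 7.28, 4.04 and 3.50 FPKM at day 4 and 11.96, 13.6 and 8.49 at day 11. From 3D day 3 on and in 2D, MKI67 and the sterol mean lay under every day 0 library. So did the fatty acid mean, apart from 2D day 11 replicates 1 and 2 (-0.146 and -0.096, lowest day 0 library -0.154). At 24 h MKI67 also lay under day 0, while both arm means lay inside the day 0 range. MKI67 at 2D day 4 was inside its range of 3D days 5 to 14, and the fatty acid mean was lower at those 3D times. The part of MKI67 in these differences was not tested.

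**Figure D4:**
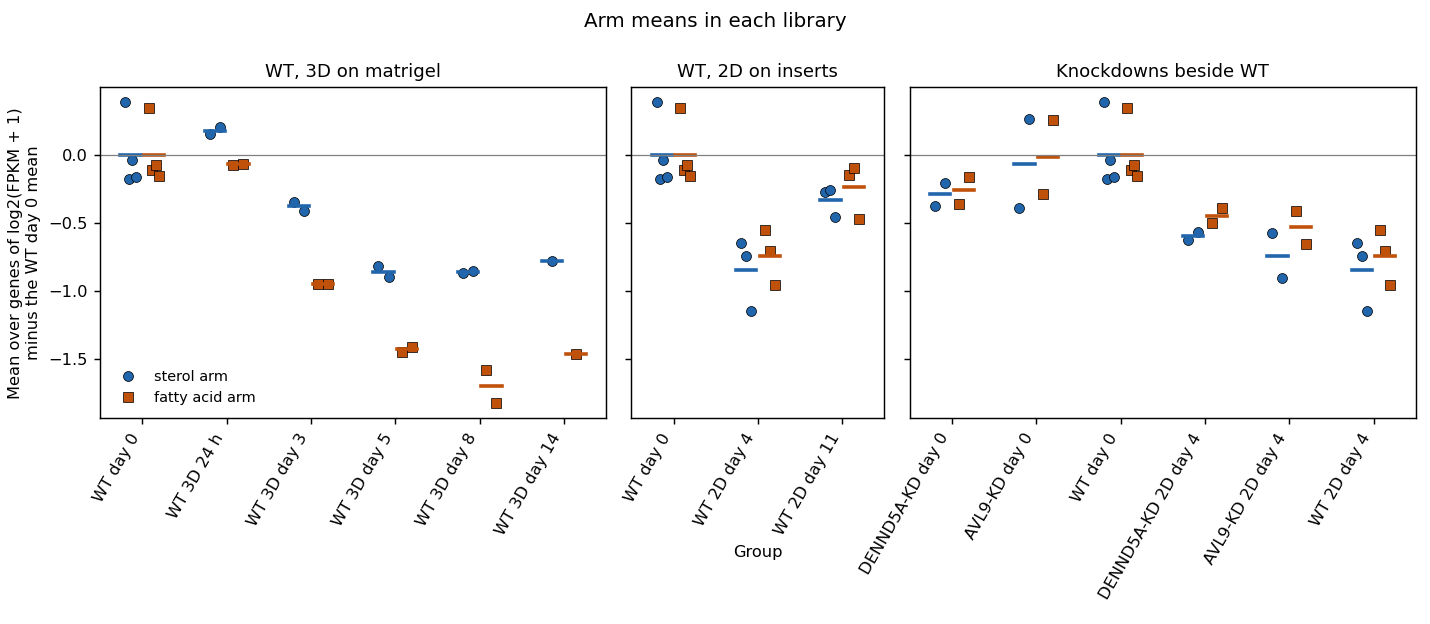
Mean over genes of log2(FPKM + 1) minus the WT day 0 mean (vertical axis) for the sterol arm (blue circles, 16 genes) and the fatty acid arm (orange squares, 7 genes), 1 symbol per library and a line for the group mean. The fatty acid mean minus the sterol mean is -0.04 to 0.25 at day 0, on inserts and in the knockdowns, and in the matrigel libraries of days 3 to 14 the fatty acid mean minus the sterol mean is -0.51 to -0.97.

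Of the regulators, INSIG1 changed most. It had 119, 69.6, 72.5 and 73.6 FPKM at WT day 0 and 55.3 and 57.5 at 3D 24 h. It had 30.95 and 23.8 FPKM at day 3, then 19.4 and 16.4 at day 5, 23.7 and 18.1 at day 8 and 24.9 at day 14. The 2D libraries had 48.2, 35.3 and 32.8 FPKM at day 4 and 43.4, 43.4 and 51.4 at day 11. No later library reached the day 0 range, and no 3D library of days 3 to 8 reached the 2D range.

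The difference of INSIG1 from day 0 was -1.55 ± 0.21 at 3D day 3 (limma adjusted p = 7.65e-06), -2.13 ± 0.21 at day 5 (1.01e-07) and -1.92 ± 0.21 at day 8 (2.17e-07). On inserts it was -1.07 ± 0.19 at day 4 (5.52e-05) and -0.81 ± 0.19 at day 11 (0.00103). Between 3D and 2D it was -0.92 ± 0.14 (1.82e-05).

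SREBF1 had 45.2, 35.4, 35.7 and 33.9 FPKM at day 0, then 37.6 and 40.6 at 24 h, 34.2 and 27.0 at 3D day 3, 17.2 and 22.4 at day 5, 22.7 and 16.1 at day 8 and 21.6 at day 14. It had 33.2, 31.6 and 27.9 FPKM at 2D day 4 and 45.2, 47.9 and 33.5 at day 11. From 3D day 5 on it lay far under day 0, and at 2D day 4 just under it. SREBF1 fell at 3D day 5 (-0.90 ± 0.16, limma adjusted p = 0.000113) and day 8 (-0.93 ± 0.16, 6.05e-05), was called at neither 2D time, and was lower in 3D than in 2D (-0.65 ± 0.11, 5.08e-05).

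SREBF2 had 79.5, 61.5, 70.1 and 66.7 FPKM at day 0, then 82.0 and 79.8 at 24 h, 67.6 and 60.2 at 3D day 3, 42.1 and 48.0 at day 5, 51.7 and 36.9 at day 8 and 55.5 at day 14. It had 63.7, 53.1 and 43.1 FPKM at 2D day 4 and 91.0, 95.7 and 68.3 at day 11. Days 5 and 8 in 3D lay under day 0, and 2 of the 3 libraries of 2D day 11 lay above it. The differences called were -0.61 ± 0.19 at 3D day 5 (limma adjusted p = 0.00816), -0.65 ± 0.19 at day 8 (0.0047) and -0.39 ± 0.16 at 2D day 4 (0.047). The call at 3D day 5 was lost without day 5 replicate 2, that at day 8 without day 8 replicate 2 and under quantile normalization, and that at 2D day 4 under 8 of 15 alternatives, day 0 replicate 1, 3 or 4 left out among them. SREBF2 was lower in 3D than in 2D (-0.40 ± 0.12, 0.00877).

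SCAP, the escort, had 16.2, 20.0, 16.6 and 17.8 FPKM at day 0, then 18.3 and 18.3 at 3D day 3, 17.1 and 22.1 at day 5, 19.1 and 15.2 at day 8 and 18.5 at day 14. It had 24.6, 25.9 and 22.3 FPKM at 2D day 4 and 23.1, 23.7 and 22.7 at day 11. Every 2D library lay above every WT library of day 0 and 3D. SCAP rose at 2D day 4 (0.44 ± 0.11, limma adjusted p = 0.00141) and day 11 (0.38 ± 0.11, 0.0052), was called at no 3D time, and was lower in 3D than in 2D (-0.36 ± 0.08, 0.000827). STARD4, a sterol carrier at 3.19 to 7.56 FPKM over all libraries, fell at each of 3D days 3, 5 and 8 and 2D days 4 and 11 (-0.37 to -0.58), and its day 3 call was lost without the 5 libraries that stand apart.

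DENND5A and AVL9 encode DENN-domain proteins, a family known for switching on Rab GTPases in membrane traffic, and their knockdown was set against WT to ask what changes when either is reduced. The targeted genes were lower as labelled. DENND5A had a mean of 1.95 FPKM in DENND5A-KD cells and 5.62 FPKM in WT cells at day 0 (-1.16 ± 0.12, limma adjusted p = 5.62e-06), and 3.83 FPKM in DENND5A-KD cells and 10.6 FPKM in WT cells at 2D day 4 (-1.28 ± 0.13, 4.63e-06). AVL9 had 6.46 FPKM in AVL9-KD cells and 23.0 FPKM in WT cells at day 0 (-1.70 ± 0.14, limma adjusted p = 1.33e-07) and 5.12 FPKM in AVL9-KD cells and 21.7 FPKM in WT cells at 2D day 4 (-1.91 ± 0.15, 8.19e-08). DENND5A itself was higher in AVL9-KD cells than in WT cells at day 0, with means of 8.43 and 5.62 FPKM (0.52 ± 0.12, limma adjusted p = 0.0075).

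In DENND5A-KD cells at day 0, FDFT1 and SREBF1 fell and no other of the 28 genes was called (5.52% of all genes called). Of the 28 differences, 26 were below 0, beside a median of -0.01 over all genes. These are differences from a WT mean that includes replicate 1, the highest WT library in both arm means. The sterol mean was -0.38 in DENND5A-KD line 1 and -0.21 in line 2, and 0.39, -0.18, -0.04 and -0.17 in WT replicates 1 to 4. FDFT1 had 9.89 and 11.3 FPKM in DENND5A-KD day 0 cells and 51.3, 26.4, 34.9 and 26.4 FPKM in WT cells. Both knockdown libraries were under every WT one, and the difference was -1.58 ± 0.38 (limma adjusted p = 0.0137). SREBF1 had 22.4 and 26.6 FPKM in DENND5A-KD cells and 45.2, 35.4, 35.7 and 33.9 FPKM in WT cells, again with no overlap (-0.60 ± 0.16, limma adjusted p = 0.0355). The FDFT1 call was lost without either knockdown library, and that of SREBF1 without either of these or WT replicate 1, 2 or 3. With the 5 libraries that stand apart left out, none of the 28 was called.

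FDFT1 was low in all 6 DENND5A-KD libraries, at 9.27 and 9.28 FPKM at 2D day 4 and 10.8 and 12.04 at 2D day 7 as well. WT cells had 21.7, 16.2 and 13.1 FPKM at 2D day 4. The groups did not overlap there either, but the difference was not called. AVL9-KD line 1 had 10.7 FPKM at day 0 and 9.67 FPKM at 2D day 4, while line 4 had 46.5 and 20.1 FPKM.

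AVL9-KD cells at day 0 had 1 call, PMVK (18% of all genes called). It had 2.68 and 1.63 FPKM in AVL9-KD cells and 4.29, 4.88, 3.41 and 4.37 FPKM in WT cells, with no overlap, and fell by 0.75 (SE 0.24, limma adjusted p = 0.0392). The call was lost without either knockdown library or WT replicate 1, 2 or 4. The 2 AVL9-KD lines were far apart in many genes at day 0. IDI1 had 99.2 FPKM in line 1 and 192 in line 4, LSS 21.0 and 55.8, FADS2 24.5 and 83.4, and CYP51A1 130.3 and 229. The sterol mean was -0.39 in line 1 and 0.26 in line 4, and the fatty acid mean -0.28 and 0.26. Without line 4, 7 of the 28 genes were called.

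**Figure D5:**
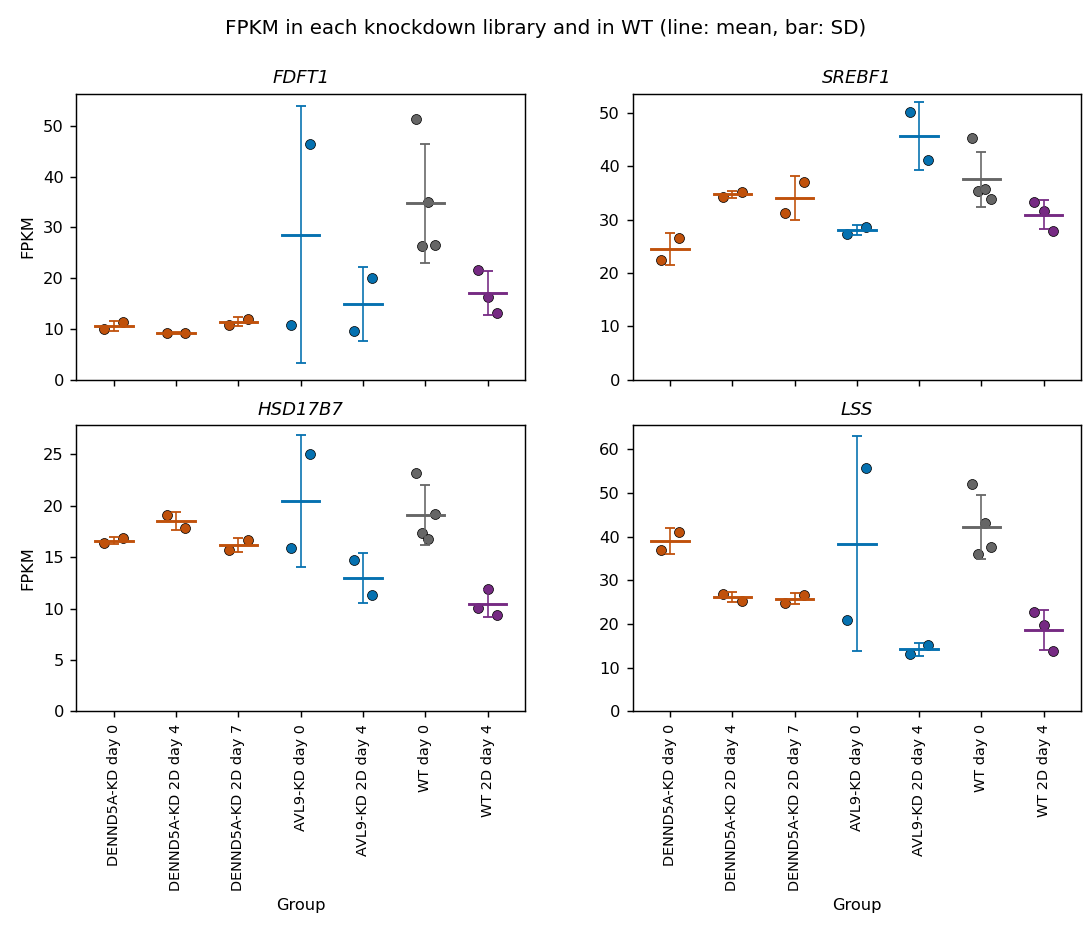
FPKM (vertical axis) of FDFT1, SREBF1, HSD17B7 and LSS in each knockdown library and in WT day 0 and 2D day 4, with the mean as a line and the SD as a bar (n = 2 per knockdown group, 4 and 3 for WT). FDFT1 is at or below 12.04 FPKM in all DENND5A-KD libraries, and the AVL9-KD day 0 lines are far apart for FDFT1 and LSS.

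At 2D day 4, HSD17B7 and ELOVL6 rose in DENND5A-KD cells (11.3% of all genes called). HSD17B7 had 19.1 and 17.9 FPKM in DENND5A-KD cells and 10.1, 11.9 and 9.37 FPKM in WT cells, with no overlap (0.77 ± 0.16, limma adjusted p = 0.00266). ELOVL6 had 34.3 and 34.6 FPKM in DENND5A-KD cells and 29.4, 21.7 and 23.5 FPKM in WT cells, also without overlap (0.47 ± 0.14, 0.0379). The HSD17B7 call was lost without DENND5A-KD line 1, and that of ELOVL6 without either line or WT replicate 2 or 3. The median difference was 0.27 in the sterol arm and 0.45 in the fatty acid arm, beside -0.03 for all genes.

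In AVL9-KD cells at 2D day 4, CYP51A1 and SREBF1 rose (21% of all genes called). CYP51A1 had 88.4 and 68.0 FPKM in AVL9-KD cells and 54.3, 58.3 and 44.1 FPKM in WT cells (0.57 ± 0.19, limma adjusted p = 0.042), and SREBF1 had 50.2 and 41.2 FPKM in AVL9-KD cells and 33.2, 31.6 and 27.9 FPKM in WT cells (0.55 ± 0.17, 0.0306). Neither pair of groups overlapped. Both calls were lost under median-ratio scaling and quantile normalization and without AVL9-KD line 1 or WT replicate 3, and CYP51A1 also without WT replicate 1. The median of all genes was 0.19 here and -0.02 under median-ratio scaling. That of the sterol arm was 0.15, and -0.09 with median-ratio scaling.

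The insert culture of day 4 was also set against day 0 within each knockdown. In DENND5A-KD cells 7 genes fell and 4 rose (22.2% of all genes lower, 20.1% higher). IDI1 had 34.7 and 33.4 FPKM at 2D day 4 and 77.1 and 94.5 FPKM at day 0, with no overlap (-1.30 ± 0.33, limma adjusted p = 0.00353). ACLY had 52.4 and 60.9 FPKM at 2D day 4 and 103 and 128 FPKM at day 0, also with no overlap (-1.01 ± 0.26, 0.00478). The call of ACLY was lost without day 0 line 2. ACAT2, FDPS, CYP51A1, FASN and STARD4 also fell (-0.58 to -0.88). SCAP (0.56 ± 0.14, limma adjusted p = 0.0036), SREBF2 (0.57 ± 0.21, 0.0385), SREBF1 (0.49 ± 0.19, 0.0423) and TM7SF2 (0.48 ± 0.15, 0.015) rose. The calls of SREBF1 and SREBF2 were lost without any 1 of the 4 libraries, and 4 to 6 calls of the 11 were left when 1 library was left out.

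In AVL9-KD cells 14 genes fell and 4 rose (22.8% lower, 31.1% higher). The same lines were sampled at both times, and the main fit did not pair them. The sterol mean went from -0.39 at day 0 to -0.57 at 2D day 4 in line 1, and from 0.26 to -0.91 in line 4. The fatty acid mean went from -0.28 to -0.41 in line 1 and from 0.26 to -0.65 in line 4. Both falls were thus larger in line 4. IDI1 had 30.7 and 22.7 FPKM at 2D day 4 and 99.2 and 192 FPKM at day 0, the largest fall among the 28 genes here (-2.35 ± 0.33, limma adjusted p = 6.81e-06). FASN had 46.7 and 38.5 FPKM at 2D day 4 and 95.7 and 110.3 FPKM at day 0 (-1.26 ± 0.21, limma adjusted p = 4.98e-05). None of these libraries overlapped. LSS, with 13.2 and 15.2 FPKM at 2D day 4 and 21.0 and 55.8 FPKM at day 0, fell by 1.22 (SE 0.29, 0.00142), a call lost without line 4 of day 0. TM7SF2, with 26.7 and 26.7 FPKM at 2D day 4 and 11.5 and 17.3 FPKM at day 0, rose (0.87 ± 0.15, limma adjusted p = 7.65e-05). So did PMVK (0.80 ± 0.28, 0.021), SREBF1 (0.68 ± 0.19, 0.00502) and SCAP (0.51 ± 0.14, 0.0044). The PMVK call was lost without line 4 of day 0 or line 1 of day 4 and under median-ratio scaling or quantile normalization, and that of SREBF1 without line 1 of day 4. The 18 calls were 11 without line 4 of day 0 and 21 without line 1 of day 0.

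At 2D day 7 against day 4 in DENND5A-KD cells, limma called none (0.051% of all genes called), and 1 of 28 had an unadjusted p under 0.05. INSIG1 had 63.4 and 72.7 FPKM at day 7 and 39.7 and 51.0 FPKM at day 4, with no overlap and no call (0.58 ± 0.25, limma adjusted p = 0.654).

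Whether the change by 2D day 4 differed between knockdown and WT was tested as an interaction. For DENND5A-KD against WT, HSD17B7 (0.95 ± 0.22, limma adjusted p = 0.0273) and ELOVL6 (0.80 ± 0.20, 0.039) were called (1.83% of all genes called). For both, WT levels were lower at 2D day 4 than at day 0 and knockdown levels were not. HSD17B7 had 19.1 and 17.9 FPKM at 2D day 4 and 16.3 and 16.9 FPKM at day 0 in DENND5A-KD cells. It had 10.1, 11.9 and 9.37 FPKM at 2D day 4 and 23.2, 17.4, 16.7 and 19.2 FPKM at day 0 in WT cells. Of the 28 differences 26 were above 0 (median of all genes -0.03) and 10 had an unadjusted p under 0.05. The sterol mean of WT cells was 0.39, -0.18, -0.04 and -0.17 at day 0 and -0.65, -0.74 and -1.14 at 2D day 4. In DENND5A-KD cells it was -0.38 and -0.21 at day 0 and -0.62 and -0.57 at 2D day 4. The signs were not counted again without the outermost WT libraries, day 0 replicate 1 and 2D day 4 replicate 3. The 2 calls became 0 to 3 when 1 library was left out. For AVL9-KD against WT, limma called none (1.22% of all genes called), and 4 of 28 had an unadjusted p under 0.05. SREBF1 was nearest (0.95 ± 0.24, limma adjusted p = 0.0565).

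Set against each other at day 0, DENND5A-KD and AVL9-KD cells had no call by limma (4.12% of all genes called) and 6 of 28 genes with an unadjusted p under 0.05. At 2D day 4, MSMO1, LSS and HSD17B7 were higher in DENND5A-KD cells (22.4% of all genes called, of which most were lower, with a median of -0.24 over all genes that was 0.00 under median-ratio scaling). MSMO1 had 23.8 and 23.4 FPKM in DENND5A-KD cells and 13.7 and 8.13 FPKM in AVL9-KD cells (1.09 ± 0.30, limma adjusted p = 0.0141). LSS had 27.0 and 25.4 FPKM in DENND5A-KD cells and 13.2 and 15.2 FPKM in AVL9-KD cells (0.84 ± 0.29, 0.0423), and HSD17B7 had 19.1 and 17.9 FPKM in DENND5A-KD cells and 14.7 and 11.3 FPKM in AVL9-KD cells (0.49 ± 0.17, 0.0471). None of these pairs overlapped, but in this comparison 14 of the 28 genes, these among them, did not overlap. The MSMO1 call was lost without DENND5A-KD line 1 or AVL9-KD line 4, that of LSS without any 1 of the 4 libraries, and that of HSD17B7 without any but AVL9-KD line 1 and also with a replicate block.

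Neighbouring pathways were described from lists of genes with textbook roles, also chosen with earlier results of these data known. Their counts are read against the shares of all genes given above for the same comparison. Fatty acid oxidation, the breakdown of what the fatty acid arm makes, had 13 genes tested. Of these 11 rose and none fell at 3D day 3, 8 rose at day 5, and 5 rose and 2 fell at day 8. On inserts 8 rose and 1 fell at 2D day 4, and 4 rose and 1 fell at 2D day 11. ETFB, an electron carrier of beta oxidation, had a mean of 37.6 ± 4.42 FPKM at day 3 (SD, n = 2) and 11.3 ± 1.10 FPKM at day 0 (SD, n = 4), and rose by 1.66 ± 0.15 (limma adjusted p = 7e-08). SLC25A20, the carnitine carrier of mitochondria, had 20.9 ± 0.896 FPKM at day 3 and 7.58 ± 1.66 FPKM at day 0 and rose by 1.37 ± 0.14 (4.2e-07). Against 2D, 5 of the 13 were higher in 3D and none lower, led by ETFA (0.83), SLC25A20 (0.74) and ETFB (0.57). The median difference of the 13 was 0.03. At day 8 the count was 9 higher and 1 lower under median-ratio scaling, 9 and 0 under quantile normalization and 3 and 2 without the 5 libraries that stand apart, in place of 5 and 2.

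Triglyceride and phospholipid synthesis, which uses the fatty acids, had 11 genes tested. At 3D day 8, 8 fell (5 under quantile normalization) and 2 rose, and 10 of 11 were lower in 3D than in 2D (8 of 11 under median-ratio scaling, 8 without the 5 libraries that stand apart). ACSL1, a long-chain acyl-CoA synthetase, had 1.93 ± 0.0955 FPKM at day 8 (SD, n = 2) and 11.3 ± 1.11 FPKM at day 0 (SD, n = 4) and fell by 2.06 (SE 0.15, limma adjusted p = 1.18e-09). DGAT2, the last enzyme of triglyceride synthesis, was lower in 3D than in 2D (-0.93 ± 0.14, 1.83e-05), as were the phosphatidate phosphatases LPIN1 (-0.90 ± 0.11) and LPIN2 (-0.70 ± 0.07). In AVL9-KD cells at 2D day 4, 8 of 11 rose, a count that was 2 under median-ratio scaling and 4 under quantile normalization.

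Other genes of fatty acid synthesis and NADPH supply had 12 tested. At 3D day 8, 5 fell and none rose, MID1IP1, a partner of ACACA, among them (-0.96 ± 0.17, limma adjusted p = 7.4e-05). Under median-ratio scaling 3 rose and 4 fell, and under quantile normalization 2 rose and 3 fell. At 2D day 4, 8 of 12 fell. In 3D against 2D, 3 were higher and none lower, PGD among them (0.59 ± 0.10, 4.97e-05), and 6 were higher under median-ratio scaling. The isoprenoid branches, with 8 genes tested, had 3 lower and 1 higher at 3D day 8, with PDSS1 (-0.99) and the dolichol synthesis gene DHDDS (-0.88) as the largest falls, and 4 higher and 1 lower in 3D against 2D.

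Genes of SREBP processing and sterol sensing had 9 tested, and moved both ways. INSIG2, the paralog of INSIG1, had 10.9 ± 0.659 FPKM at 3D day 3 (SD, n = 2) and 5.87 ± 0.302 FPKM at day 0 (SD, n = 4) and rose by 0.80 ± 0.17 (limma adjusted p = 0.000567), and it rose by 0.67 ± 0.17 at day 8 (0.00169), at times when INSIG1 fell. The site-2 protease gene MBTPS2 fell at day 8 (-0.76 ± 0.13, 3.41e-05), and the site-1 protease gene MBTPS1 was lower in 3D than in 2D (-0.60 ± 0.08, 2.21e-06).

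Of 7 genes of the LXR (oxysterol receptor) targets and sterol efflux list, 3 rose and 2 fell at 3D day 8, and 4 were lower and 1 higher in 3D than in 2D. Without the 5 libraries that stand apart 1 rose at day 8 and 2 were lower in 3D, the second count also under quantile normalization. SOAT1, which esterifies cholesterol, fell at day 8 (-1.22 ± 0.14, limma adjusted p = 2.67e-07), and MYLIP, an LXR target, was lower in 3D than in 2D (-1.09 ± 0.09, 8.63e-09). Of 9 genes of sterol uptake and transport, 2 rose and 5 fell at day 8, with 2 and 3 under median-ratio scaling and 4 and 3 under quantile normalization. NPC2, the soluble cholesterol carrier of lysosomes, had 379 ± 19.2 FPKM at day 8 (SD, n = 2) and 115 ± 13.8 FPKM at day 0 (SD, n = 4) and rose by 1.72 ± 0.17 (4.28e-08), while the lipoprotein receptor SCARB1 fell (-1.28 ± 0.17, 1.62e-06).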

How the data were processed

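RNA libraries were made with a stranded mRNA kit, per the labels' protocols. The authors deposited 1 table of FPKM values per library for 24223 Ensembl dog genes. HISAT2 2.1.0, Cufflinks 2.2.1 and the builds canFam3 and CanFam3.1 are named in the submitters' processing notes with no role given, and further scaling between libraries is not given in the sources used here. No read counts, coordinates or sequences were used, since no genome of this build was at hand, so promoter motifs were not examined. Depth, on which precision rests, was known only relative to WT day 0 replicate 2, estimated from the spacing of FPKM values below 0.15.

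The members, arms and gene lists were chosen with earlier results of these data known. Where a name repeats, the row with the highest mean FPKM was used. The 11774 genes that reached 1 FPKM in 2 or more libraries were taken as log2(FPKM + 1). All 29 libraries entered 1 linear model of group means in limma 3.58.1, with its trend option, under R 4.3.3. Tests were 2-sided with Benjamini-Hochberg adjustment over these genes and a threshold of 0.05, and day 14 (n = 1) was not tested. The fit was tested on simulated data. All members were named. Values per library were given for members called with a log2 difference of at least 1 in any comparison or called against the direction of their arm's median, and for SREBF1, SREBF2, INSIG1 and SCAP. The others were given by range and counts, and lists by counts and the largest called differences, apart from a gene that is not reported here.

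The fit was repeated with median-ratio scaling, quantile normalization, no expression filter, a pseudocount of 0.1, a replicate block (duplicateCorrelation), the groups of a comparison fitted alone, a term for the 5 libraries that stand apart, their omission, and each library left out. No libraries were identical. Knockdown numbers name lines sampled at several times. Deviations from group means correlated by 0.36 between the 2 times of AVL9-KD, and by 0.0101 to 0.0966 between the times of DENND5A-KD. With 2 libraries per group the deviations mirror each other, so both lines give the same value. Figures were drawn with matplotlib 3.10.9, and tables were handled in pandas 2.3.3 on Python 3.11.15 (scipy 1.17.1, numpy 2.4.6).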

Additional observations from a re-analysis of the deposited data

Results flagged for a closer look

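WT day 0 replicate 1, one of the 5 libraries that stand apart, lay far from the other day 0 libraries in MVD (49.0 FPKM), ELOVL6 (48.6 FPKM), SREBF1 (45.2 FPKM) and INSIG1 (119 FPKM). Each was above Dixon's 95% limit for 4 samples, in 4 of 28 genes checked, where chance gives about 1 in 20 for a single gene. The 28 genes share the same 4 libraries, so they are not separate checks.

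The effect of the DENND5A knockdown differed between 2D day 4 and day 0 for HSD17B7 (0.95 on the log2 scale, limma adjusted p = 0.0273) and ELOVL6 (0.80, 0.039). The knockdowns differed from each other at 2D day 4 in LSS (0.84 higher in DENND5A-KD than in AVL9-KD cells, limma adjusted p = 0.0423), MSMO1 (1.09, 0.0141) and HSD17B7 (0.49, 0.0471). The part of the line in these differences was not tested.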

How the results depend on the processing

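No called difference of a member changed sign under any alternative run. Of 173 calls, 172 were kept with a pseudocount of 0.1, with the replicate block and with the term for the 5 libraries that stand apart, 168 with median-ratio scaling, 158 with no expression filter, 155 with quantile normalization, 147 without those 5 libraries and 134 with the groups of a comparison fitted alone, and 908 of 1078 with 1 library left out. Called members went to 1 (main 0) at 24 h with that term and without the 5, and to 7 (main 13) at 3D day 3 without the 5. For 2D day 11 against day 4 (main 4) they were 12 with the term, 10 with the replicate block, and 0 with no filter and with the groups alone. For DENND5A-KD at day 0 (main 2) they were 4 with quantile normalization, 5 with median-ratio scaling, 1 with the groups alone and 0 without the 5. For AVL9-KD at day 0 (main 1) they were 7, 7, 0 and 3 under these, 0 with no filter and 3 with the term. For DENND5A-KD at 2D day 4 (main 2) they were 6 with quantile normalization, 5 with median-ratio scaling, 0 alone, and 4 with the term and without the 5. For AVL9-KD at 2D day 4 (main 2) they were 1 with quantile normalization, median-ratio scaling and no filter, 0 alone, 5 with the term and 4 without the 5, and its change within 2D day 4 against day 0 had 5 (main 18) with the groups alone. The DENND5A-KD interaction (main 2) had 5, 7, 6, 0, 6 and 1 with quantile normalization, median-ratio scaling, the replicate block, the groups alone, the term and without the 5. The AVL9-KD interaction (main 0) had 1 with quantile normalization, median-ratio scaling, the replicate block and the term. Between the knockdowns, day 0 (main 0) had 1, 1 and 2 with quantile normalization, median-ratio scaling and the term, and 2D day 4 (main 3) had 8, 6, 1 and 0 with quantile normalization, median-ratio scaling, no filter and the groups alone. The cause of these moves was not tested, apart from the fewer samples of some fits. With 1 library left out, the counts ran from 9 to 13 at 3D day 3, 20 to 23 at day 5, 21 to 25 at day 8, 6 to 8 for day 3 against 24 h, 21 to 25 at 2D day 4, 12 to 15 at 2D day 11, 0 to 11 for 2D day 11 against day 4 and 14 to 15 for 3D against 2D. They ran from 0 to 2 for DENND5A-KD at day 0, 0 to 7 for AVL9-KD at day 0, 0 to 2 for DENND5A-KD and 0 to 3 for AVL9-KD at 2D day 4, 4 to 6 and 11 to 21 for day 4 against day 0 in DENND5A-KD and AVL9-KD cells, 0 to 3 and 0 to 1 for the interactions and 0 to 3 for the knockdowns against each other at either time. A lone sample left in a group was assumed to vary like the other groups. Of all called genes, the share higher was 39.4% at 3D day 8 (50.9% with median-ratio scaling), 52.9% (38.9%) at 24 h, 38.9% (50.1%) in 3D against 2D, 91.4% (74%) for 2D day 11 against day 4, 21.7% (48.5%) for 3D day 5 against day 3, 74.5% (48.8%) for AVL9-KD at day 0, 88.9% (50.3%) at 2D day 4, 80.6% (63.4%) in its interaction, 33.3% (12.5%) for DENND5A-KD day 7 against day 4, and 36.3% (61.7%) and 14.6% (58.6%) for DENND5A-KD against AVL9-KD at day 0 and 2D day 4. WT numbers were not taken to pair samples in the main fit, while the replicate block took them as shared. Same-numbered WT libraries correlated over 0.1 in 19 of 41 pairs. These were all 6 pairs within the libraries that stand apart (0.40 to 0.56) and 13 of the other 35 (-0.16 to 0.47 over those 35). Some of these pairs repeat a value, as in groups of 2 libraries the deviations mirror each other (0.47 for both numbers at 3D days 3 and 8). Of the calls of members, the replicate block ended that of HSD17B7 between the knockdowns at 2D day 4 and no other. The depth of each library sets no stated limit here, since read counts were not used.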
